A study of Homo sapiens with 4 samples.

Results

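The 8 genes described here encode the enzyme that IWP2 inhibits and proteins that handle Wnt ligands around the cell surface: Porcupine (PORCN), Wntless (WLS), the secreted enzyme Notum (NOTUM) and the glypicans GPC1, GPC2, GPC3, GPC4 and GPC6. They were chosen by gene symbol, and all 8 were found, each on 1 row, among the 58365 rows of an expression table of H1 cells, a human embryonic stem cell line. The 4 libraries came from H1 cells collected at day 2 of hematopoietic differentiation, after culture in custom mTeSR1 medium with activin A and BMP4, which induce mesoderm. In 2 libraries the cells received the vehicle DMSO and in the other 2 they received IWP2, so the comparison asks how the transcripts of these genes differ when Wnt secretion is blocked during mesoderm induction. The sample labels give 40 ng/ml activin A and 50 ng/ml BMP4 for all 4 libraries, whereas the study's methods assign these amounts to the factors the other way round. The concentration of IWP2 is not given in the sources used here. Both groups come from 1 cell line and were bulk cultures, and the labels do not say whether replicates 1 and 2 of a group were separate cultures, so p-values measure only the spread between these libraries.

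Wnt proteins are made with a lipid. Porcupine, an acyltransferase of the endoplasmic reticulum, attaches a palmitoleate group to the ligand, and the multipass membrane protein Wntless then carries the acylated ligand to the cell surface. Outside the cell, glypicans, which are heparan sulfate proteoglycans held to the membrane by a glycosylphosphatidylinositol (GPI) anchor, bind Wnt and other growth factors, and Notum removes the palmitoleate from Wnt and so inactivates it. NOTUM is itself a known target of Wnt/β-catenin signaling in several tissues, and Wnt signaling is required for primitive streak and mesoderm formation.

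The row names of the table place the genes on GRCh38, and all 8 are annotated as protein-coding. PORCN lies on the plus strand at chrX:48508962-48520814, WLS on the minus strand at chr1:68098473-68233120 and NOTUM on the minus strand at chr17:81952507-81961840. Among the glypicans, GPC1 lies on the plus strand at chr2:240435671-240468078, GPC2 on the minus strand at chr7:100169606-100177372 and GPC6 on the plus strand at chr13:93226842-94407401. GPC4, at chrX:133300103-133415490, and GPC3, at chrX:133535745-133985895, are next to each other on the minus strand, 120 kb apart, with no other protein-coding gene between them. 

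The sequences just upstream of 4 transcription starts are shown because these genes cover the range of responses described below: WLS fell, PORCN was lower without passing the test, GPC4 rose the most and GPC1 had nearly the same level in both groups. They are from RefSeq (GRCh38.p14), 5′ to 3′ on the gene's strand, and are the part of each 250-base upstream window that no exon of GENCODE release 29 overlaps: WLS at chr1:68232554-68232659, PORCN at chrX:48508839-48508961, GPC4 at chrX:133415491-133415739 and GPC1 at chr2:240435413-240435662. Capitals mark the GC box GGGCGG on either strand.
WLS: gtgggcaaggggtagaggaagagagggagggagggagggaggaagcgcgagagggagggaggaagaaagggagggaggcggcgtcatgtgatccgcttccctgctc
PORCN: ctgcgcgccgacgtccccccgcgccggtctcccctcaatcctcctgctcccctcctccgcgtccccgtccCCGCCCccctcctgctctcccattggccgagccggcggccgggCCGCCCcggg
GPC4: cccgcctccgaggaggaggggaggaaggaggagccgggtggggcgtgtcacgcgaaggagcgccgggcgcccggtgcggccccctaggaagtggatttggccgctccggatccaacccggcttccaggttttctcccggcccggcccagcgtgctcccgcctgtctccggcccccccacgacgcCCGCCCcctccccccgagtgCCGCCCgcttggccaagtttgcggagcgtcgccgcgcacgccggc
GPC1: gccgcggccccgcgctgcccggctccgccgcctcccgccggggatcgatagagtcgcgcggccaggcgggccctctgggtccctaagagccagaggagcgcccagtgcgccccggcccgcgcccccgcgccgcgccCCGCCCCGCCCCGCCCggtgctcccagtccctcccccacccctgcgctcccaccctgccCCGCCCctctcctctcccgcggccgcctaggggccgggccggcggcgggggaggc

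Of the 8 genes, 6 (PORCN, WLS, GPC1, GPC2, GPC4 and GPC6) had an entry in the RefSeq promoter table, with 8 windows of 300 bases between them, each running from 250 bases before to 50 bases after a start. None of the 8 windows held, on either strand, the TCF/LEF core word CTTTG followed by any pair of bases made of A and T, and 13.8% of all 35116 windows of the same length did. The GC box was in 4 of the 8 windows, against 45.0% of all windows, and was present for GPC1, GPC2, GPC4 and PORCN but not for WLS or GPC6. The stretches shown were 84.0% G or C for GPC1, 80.5% for PORCN, 75.9% for GPC4 and 65.1% for WLS. GPC4, PORCN and GPC1 all had GC boxes in the stretches shown.

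The values are FPKM, fragment counts scaled by the authors to transcript length and to the depth of each library. In genes with a single annotated transcript, 1 fragment was estimated to be worth between 0.0451 and 0.0556 FPKM per kilobase. This puts the libraries at an estimated 18000000 to 22200000 fragments. The estimate used only values inside a window set in advance, so it is a rough guide. The lowest value of any of the 8 genes was 5.64 FPKM, for NOTUM in IWP2 replicate 2. At 0.0556 FPKM per fragment, the largest estimate and that of DMSO replicate 2, it would rest on about 101 fragments per kilobase. The estimate for its own library, 0.0521 FPKM, was smaller, so the number there would be somewhat higher. Genes with a mean of at least 1 FPKM over the 4 libraries were tested, which kept all 8 genes and 14022 genes in all.

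The markers of cell identity differed between the groups. All 10 primitive streak and mesoderm markers were in the table, 9 of 9 tested were lower with IWP2, and their summed level was 1158 to 1463 FPKM with DMSO and 151 to 173 FPKM with IWP2. Of 8 pluripotency markers, 4 were higher with IWP2 (SOX2, POU5F1, DNMT3B and ZFP42), TDGF1 was lower and 3 did not pass the test, with a summed level of 1309 to 1470 FPKM against 2568 to 2571 FPKM. SOX2 was at 0.193 and 0.174 FPKM with DMSO and at 35.6 and 36.1 FPKM with IWP2. Of 7 definitive endoderm markers, 5 of 6 tested were lower, with sums of 1918 to 2307 FPKM against 126 to 137 FPKM. Most of the DMSO sums was CER1, at 1612 and 2048 FPKM with DMSO and 38.6 and 34.2 FPKM with IWP2. SOX17 did not pass, at 155 and 104 FPKM with DMSO and 79.7 and 94.9 FPKM with IWP2. Of 7 amnion and trophoblast markers, TFAP2A, KRT7 and GABRP were higher, CDX2 was lower, GATA3 and ISL1 did not pass and CGA was not tested. Their sums were 69.4 to 69.6 FPKM with DMSO against 82.9 to 89.4 FPKM with IWP2. GATA3, the most abundant of them, was at 39.7 and 43.7 FPKM with DMSO and 34.6 and 37.7 FPKM with IWP2. Of 6 neural ectoderm markers, only OTX2, which also marks anterior streak, was tested, and it was lower with IWP2. It was at 55.8 and 61.2 FPKM with DMSO and 2.19 and 2.95 FPKM with IWP2. The other neural ectoderm markers reached at most 1.33 FPKM. Among the 7 markers of endothelium and blood, only CD34 reached 1 FPKM in any library, and GATA1 was listed at 0 in all 4. Every difference below stands beside these shifts, their part in it was not tested, and in bulk RNA fewer cells of a type and less RNA per cell cannot be told apart.

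Of the 3 genes that lipidate Wnt, carry it or remove its lipid, 2 fell in cells that received IWP2. The mean level of WLS fell by 47.6% and that of NOTUM fell by 55.9%, and PORCN was lower in both IWP2 libraries without passing the test. Among all 8 genes, 2 fell (WLS and NOTUM), 2 rose (GPC3 and GPC4) and 4 did not pass the threshold of an adjusted p under 0.05 in limma, whereas 15.2% of all tested genes were called in either direction, 8.44% lower and 6.75% higher.

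WLS, the carrier of acylated Wnt ligands, was the most abundant of the 8 genes in control cells. Its level was 122 and 129 FPKM with DMSO and 71.0 and 60.7 FPKM with IWP2. Both IWP2 libraries lay far below both control libraries, and the gap between the groups was larger than the gap within either. The control mean was 1.91-fold the IWP2 mean, and the fitted difference was -0.92 ± 0.10 on the log2(FPKM + 1) scale (SE, n = 2 per group, 95% interval -1.19 to -0.66, adjusted p = 0.0061). Leaving out IWP2 replicate 2, the lower of the IWP2 libraries, left a difference of -0.81 that no longer passed (adjusted p = 0.065), and testing all genes with any value above 0 did the same (adjusted p = 0.066). The antisense gene GNG12-AS1, which overlaps WLS, was at no more than 0.436 FPKM in any library.

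PORCN, which encodes the direct target of IWP2, was expressed at a much lower level than WLS per unit of transcript length. It was at 15.5 and 10.1 FPKM with DMSO and at 6.97 and 6.97 FPKM with IWP2. The groups did not overlap, but the control libraries stood far apart from each other while the IWP2 libraries were nearly identical. The ratio of the means, 1.84-fold higher with DMSO, was close to that of WLS. The difference was -0.77 ± 0.20 on the log2(FPKM + 1) scale (95% interval -1.29 to -0.25) and did not pass the threshold (adjusted p = 0.067, limma). Without DMSO replicate 2, the control library closer to the IWP2 values, the difference was -1.05 and passed (adjusted p = 0.033). Without DMSO replicate 1 it was -0.48 (adjusted p = 0.12). The transcript level says nothing of the activity of the enzyme, on which IWP2 acts.

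NOTUM, the Wnt deacylase, was at 14.1 and 12.4 FPKM with DMSO and at 6.05 and 5.64 FPKM with IWP2. Both IWP2 libraries lay well below both control libraries. On the log2(FPKM + 1) scale the DMSO libraries differed by 0.18 and the IWP2 libraries by 0.09. The median gaps over tested genes with a mean of at least 5 FPKM were 0.14 and 0.12. The control mean was 2.27-fold the IWP2 mean, and the difference was -1.06 ± 0.12 (log2, SE, 95% interval -1.36 to -0.75, adjusted p = 0.0064, limma). The call was lost without either IWP2 library (adjusted p = 0.080 without replicate 1 and 0.094 without replicate 2) and with no filter on low values (adjusted p = 0.061). NOTUM was the least abundant of the 8 genes with IWP2 and the fifth with DMSO.

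**Figure D1:**
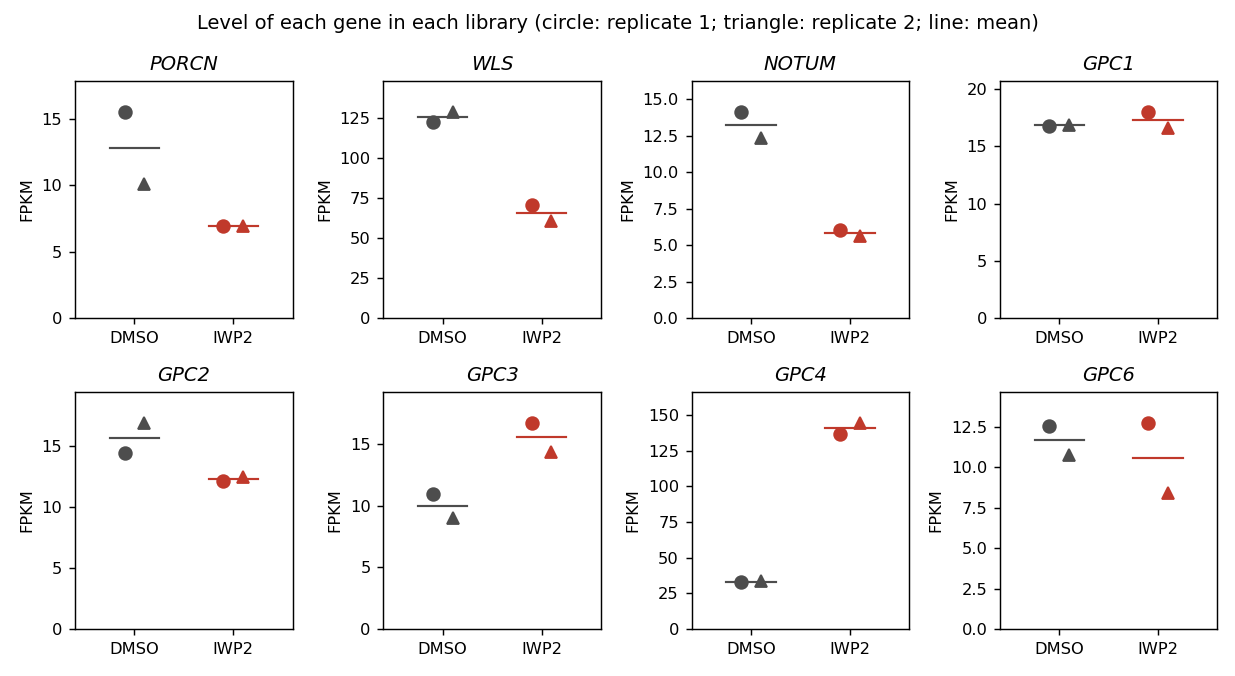
FPKM (y axes, each from 0) of the 8 genes in the 4 libraries, with circles for replicate 1, triangles for replicate 2 and lines for group means. PORCN, WLS, NOTUM and GPC2 have both IWP2 libraries (red) below both DMSO libraries (grey), GPC3 and GPC4 have both above, and GPC1 and GPC6 overlap.

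The glypicans did not move as a block. GPC4 rose about 4-fold and GPC3 rose more modestly, while GPC1, GPC2 and GPC6 did not pass the test. GPC4 is a glypican known to be present on the surface of human pluripotent stem cells. Its level was 32.8 and 33.4 FPKM with DMSO and 136 and 145 FPKM with IWP2. The libraries of each group agreed closely, and the lowest IWP2 value was far above the highest control value. The IWP2 mean was 4.25-fold the control mean, and the difference was 2.05 ± 0.08 (log2, SE, 95% interval 1.85 to 2.26, adjusted p = 0.00036, limma). This call held in all 11 alternative analyses, with differences between 2.01 and 2.09.

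GPC3, the X-linked glypican whose loss causes an overgrowth syndrome, was at 10.9 and 9.02 FPKM with DMSO and at 16.7 and 14.4 FPKM with IWP2. Both IWP2 libraries were above both controls, although the gap between the groups was not much wider than the spread within them. The IWP2 mean was 1.56-fold the control mean, with a difference of 0.59 ± 0.14 (log2, SE, 95% interval 0.24 to 0.95) that just passed the threshold (adjusted p = 0.048, limma). It kept its direction in all 11 alternatives but was called in 5 of them, and no analysis that left out a library called it (adjusted p from 0.072 to 0.26).

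The other 3 glypicans did not pass the threshold. GPC1, a broadly expressed glypican, was at 16.8 and 16.9 FPKM with DMSO and at 18.0 and 16.6 FPKM with IWP2. The groups overlapped, the difference was 0.04 ± 0.10 (log2, SE, adjusted p = 0.84), and its 95% interval ran from -0.21 to 0.28, which leaves room for a small change in either direction. GPC2, known as cerebroglycan from the developing nervous system, was at 14.4 and 16.9 FPKM with DMSO and at 12.1 and 12.5 FPKM with IWP2. Both IWP2 values lay below both controls, by -0.32 ± 0.12 (log2, SE, 95% interval -0.62 to -0.03, adjusted p = 0.14). GPC6, whose loss impairs growth of the long bones, was at 12.6 and 10.8 FPKM with DMSO and at 12.8 and 8.40 FPKM with IWP2. Its highest and its lowest value both came from the IWP2 libraries, and the difference was -0.15 ± 0.21 (log2, SE, 95% interval -0.67 to 0.37, adjusted p = 0.68). GPC5, the glypican outside this set, was at no more than 0.467 FPKM in any library and was not tested.

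**Figure D2:**
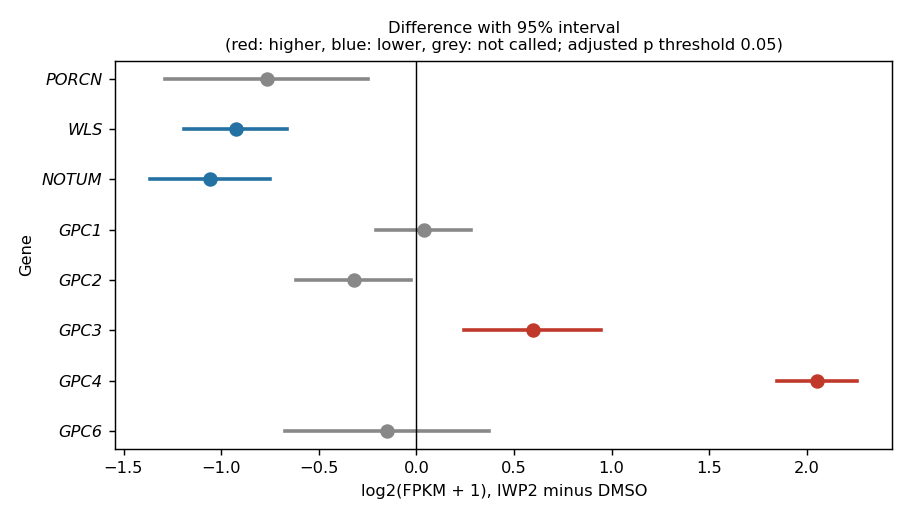
Fitted difference between IWP2 and DMSO on the log2(FPKM + 1) scale (x axis) for each gene (y axis), as a point with its 95% interval from limma (n = 2 per group). The interval of GPC4, 1.85 to 2.26, lies far to the right of the others, WLS and NOTUM lie to the left, and the intervals of GPC1 and GPC6 span 0.

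Because FPKM is scaled by transcript length, the glypicans can be set against each other. The 5 glypicans summed to 87.5 and 86.9 FPKM with DMSO and to 196 and 196 FPKM with IWP2, a 2.25-fold higher total. GPC4 made up 37.5% and 38.4% of this total in the control libraries and 69.6% and 73.6% in the IWP2 libraries. Without GPC4, the remaining glypicans summed to 54.7 and 53.6 FPKM with DMSO and to 59.6 and 51.9 FPKM with IWP2, so the groups overlapped. The share of GPC1 was 19.2% and 19.4% with DMSO and 9.18% and 8.47% with IWP2, at nearly the same FPKM. GPC3 rose in FPKM yet its share was 12.5% and 10.4% with DMSO and 8.53% and 7.32% with IWP2. These shares and sums are a description, since 2 libraries against 2 cannot give an exact two-sided permutation p under 0.333.

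**Figure D3:**
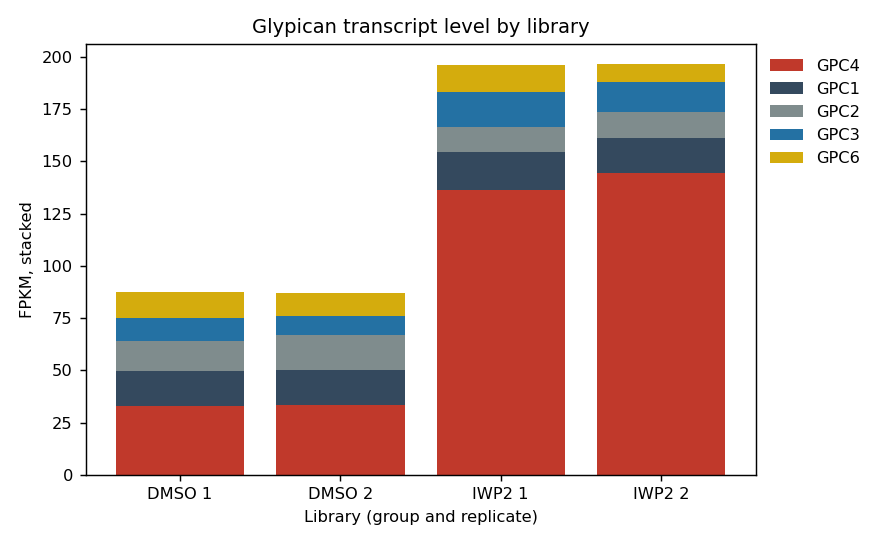
FPKM of the 5 glypicans stacked by library (y axis from 0). The total is 86.9 to 87.5 FPKM in the DMSO libraries and 196 FPKM in both IWP2 libraries, and GPC4 (bottom, red) accounts for the step.

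The order of the 8 genes by level changed with treatment. With DMSO, WLS came first, at a mean of 125 FPKM, and GPC4 second, at 33.1 FPKM, each apart from the next gene in both libraries. GPC1 and GPC2 followed with overlapping values, and NOTUM, PORCN, GPC6 and GPC3, with means from 13.3 down to 9.97 FPKM, each overlapped the next in that order. With IWP2, GPC4 came first, at a mean of 141 FPKM, ahead of WLS at 65.8 FPKM, and the values of these genes did not overlap. GPC1 and GPC3 overlapped, as did GPC2 and GPC6, and PORCN and NOTUM were last, at 6.97 and 5.85 FPKM. The ratio of GPC4 to WLS was 0.268 and 0.259 in the control libraries and 1.92 and 2.38 in the IWP2 libraries. Among all tested genes, GPC4 stood at the 79.4 percentile of level with DMSO and at the 95.8 percentile with IWP2, while WLS stood at the 95.2 and the 90.4 percentile.

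Set against all 14022 tested genes, the 8 genes were not uniformly shifted. Their median difference was -0.24 on the log2 scale beside -0.02 over all tested genes. The groups did not overlap for 6 of the 8 genes, 2 with both IWP2 libraries above both controls and 4 with both below, while 27.9% of all tested genes lay above in this way and 31.9% below. By size of the difference, GPC4 ranked 50 and GPC3 ranked 773 among the 946 genes called higher. NOTUM ranked 537 and WLS ranked 637 by size among the 1183 genes called lower, so their falls were moderate beside those of many other genes.

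**Figure D4:**
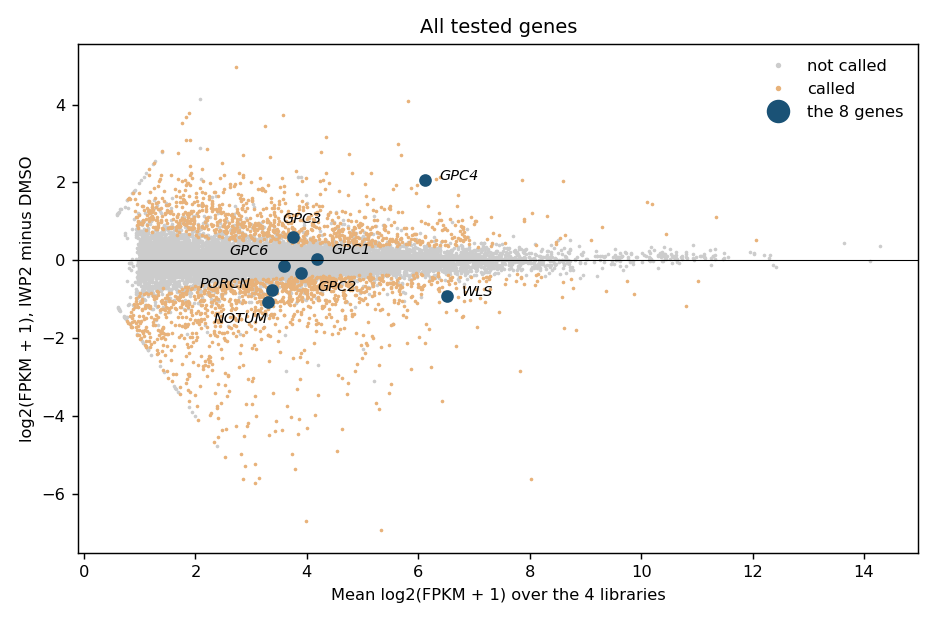
Difference between IWP2 and DMSO (y axis, log2(FPKM + 1)) against mean level over the 4 libraries (x axis, same scale) for the 14022 tested genes, with called genes in orange and the 8 genes in blue. GPC4 lies highest of the 8, at 2.05, and WLS, at -0.92, lies farthest to the right.

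For each of the 4 genes that were called, the tested genes with the most similar pattern over the 4 libraries were found by Euclidean distance on log2(FPKM + 1), with each gene centred on its own mean. The nearest to NOTUM was ADAM19, a membrane metalloprotease, at 126 and 112 FPKM with DMSO and 58.6 and 54.8 FPKM with IWP2 (distance 0.0074), followed by MMP14, a membrane-type matrix metalloprotease, at 183 and 165 FPKM against 87.0 and 82.8 FPKM (distance 0.042). For WLS they were CEP85L, which encodes a centrosomal protein (distance 0.050), and RAB3IL1, a regulator of Rab GTPases (distance 0.055), whose values with DMSO reached only 3.54 and 2.94 FPKM. For GPC4 they were the ephrin-B receptor gene EPHB1, at 0.770 and 0.872 FPKM with DMSO and 6.09 and 6.22 FPKM with IWP2 (distance 0.097), and the syntrophin gene SNTB1, at 0.238 and 0.288 against 4.26 and 4.07 FPKM (distance 0.10). For GPC3 they were TCEAL1 (distance 0.036) and the RNA-binding protein gene ELAVL2 (distance 0.042), neither of which passed the test. Adding 1 shrinks the ratios of low values. The genes named for WLS, GPC3 and GPC4, all low in FPKM, therefore changed by larger ratios of FPKM than the gene they are set beside. With 4 libraries such likeness describes these samples only.

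The genes next to the 8 on the chromosome gave no common direction. GPC3 and GPC4 are each other's neighbours and both rose, and on the far side of GPC3, 251 kb away, CCDC160 was at 0.892 and 0.720 FPKM with DMSO and at 1.98 and 1.98 FPKM with IWP2 (difference 0.72, adjusted p = 0.056). On the far side of GPC4, TFDP3 was listed at 0 in all libraries. EBP, a sterol isomerase gene that starts 0.344 kb beyond the end of PORCN on the same strand, was at 99.5 and 92.5 FPKM with DMSO and at 114 and 136 FPKM with IWP2, so its values lay above the controls where those of PORCN lay below, although neither passed the test (adjusted p = 0.089 for EBP). GAL3ST4, a sulfotransferase gene 0.856 kb from GPC2 on the same strand, fell by 1.46 on the log2(FPKM + 1) scale (adjusted p = 0.021, limma). Neither neighbour of WLS, DIRAS3 or RPE65, exceeded 0.315 FPKM. The library kit does not mark strand, and for genes this close, such as PORCN and EBP or GPC2 and STAG3, 0.191 kb away, reads at shared ends may be hard to assign.

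Genes that act beside these 8 were read from fixed lists. None of the 10 Wnt cargo transport genes passed the adjusted threshold in limma, and 2 (TMED2 and VPS26B, both lower) had an unadjusted p under 0.05, as did 30.3% of all tested genes. The list holds p24 cargo receptors, which help export from the endoplasmic reticulum, and parts of the retromer, which recycles Wntless. VPS35, the retromer core, was at 24.5 and 32.7 FPKM with DMSO and at 31.6 and 34.9 FPKM with IWP2, with overlapping groups. The list's median difference was -0.13 on the log2(FPKM + 1) scale, beside the -0.92 of WLS. Of 9 membrane-bound O-acyltransferase genes, the enzyme family of Porcupine, 6 were tested, and SOAT1, which esterifies cholesterol, was the only gene called, falling by 0.92 (adjusted p = 0.021). Of all tested genes, 15.2% were called.

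Of the genes for enzymes that build or cut glypicans, 1 on each list passed the test. Among all tested genes, 15.2% were called and 30.3% had an unadjusted p under 0.05 in limma, so these counts do not set the lists apart. All 12 genes for heparan sulfate chain synthesis were tested, 5 had an unadjusted p under 0.05 (1 higher and 4 lower) and 1 passed after adjustment: XYLT2, a xylosyltransferase that starts the chain, was at 5.40 and 5.67 FPKM with DMSO and at 9.09 and 8.67 FPKM with IWP2 (difference 0.60 ± 0.11, adjusted p = 0.027). The chain polymerase gene EXT1 was at 39.2 and 30.9 FPKM with DMSO and at 23.5 and 23.8 FPKM with IWP2, without passing (difference -0.54, adjusted p = 0.055). Of 10 genes on the list for glypican processing and release, 6 were tested, 3 had an unadjusted p under 0.05 (2 higher and 1 lower) and FURIN, a convertase that cleaves glypicans, was the only one called, at 41.9 and 36.6 FPKM with DMSO and 57.3 and 54.7 FPKM with IWP2 (difference 0.51 ± 0.10, adjusted p = 0.030).

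The Wnt ligands are the cargo of Porcupine and Wntless, and the feedback targets of Wnt signaling are genes that the pathway switches on in many tissues. Of 19 ligand genes, 7 were tested, 4 fell, 2 rose and 1 did not pass, while 8.44% of all tested genes were called lower and 6.75% higher. WNT5A fell by 4.30 on the log2 scale and WNT5B fell by 2.84, while WNT2B rose by 1.82 and WNT6 rose by 1.10. Summed over the 19 genes, ligand transcripts were at 163 and 174 FPKM with DMSO and at 32.8 and 29.1 FPKM with IWP2, a 5.45-fold lower mean beside the 1.91-fold lower mean of WLS. WLS was therefore at 0.750 and 0.740 times the summed ligand level with DMSO and at 2.16 and 2.09 times with IWP2. Most of the ligand sum with DMSO came from WNT5A (60.1 and 82.4 FPKM) and WNT5B (83.2 and 70.9 FPKM). With IWP2 these genes were at 2.45 and 2.82 FPKM and at 10.1 and 9.67 FPKM. The sum and this ratio therefore mainly follow WNT5A and WNT5B and do not describe the ligands in general. Of 10 Wnt feedback targets, 8 fell, among them SP5 by 5.22 and LGR5 by 4.54 on the same scale, and RNF43 and ZNRF3 did not pass. With IWP2, SP5 was at 0.379 and 0.363 FPKM and LGR5 at 0.105 and 0.0763 FPKM, where adding 1 shrinks differences. The DMSO mean was 135-fold the IWP2 mean for SP5 and 271-fold for LGR5. AXIN2, a feedback target at a level like that of NOTUM, was at 14.2 and 15.2 FPKM with DMSO and at 6.45 and 5.58 FPKM with IWP2 (difference -1.16 ± 0.12, adjusted p = 0.0048), beside the -1.06 of NOTUM. Feedback targets near this level varied. The difference was -0.99 for TCF7, at 16.7 and 17.2 FPKM with DMSO, and -3.14 for LEF1, at 9.34 and 9.70 FPKM. The list's median was -2.47.

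**Figure D5:**
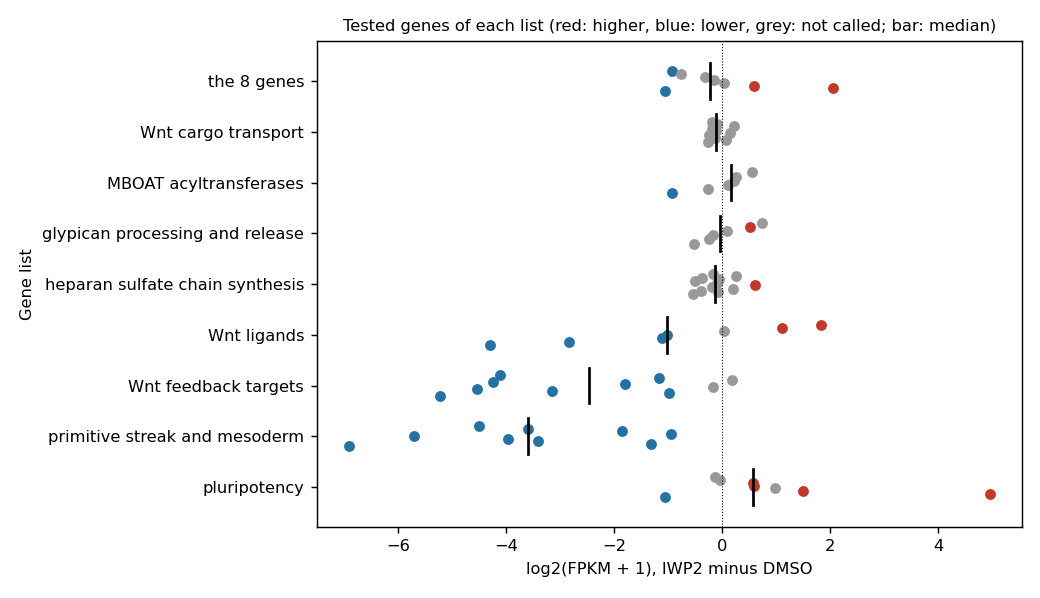
Difference between IWP2 and DMSO (x axis, log2(FPKM + 1)) for every tested gene of each list (y axis), red where called higher, blue where called lower and grey where not called, with a bar at the list's median. The cargo transport and heparan sulfate lists each have a median of -0.13, the latter with genes from -0.54 (EXT1) to 0.60 (XYLT2), and the medians are -1.02 for Wnt ligands, -2.47 for Wnt feedback targets and -3.60 for primitive streak and mesoderm markers.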

How the data were processed

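RNA-seq libraries (Illumina TruSeq RNA kit, which does not mark strand) were made from total RNA of 4 H1 samples, 2 with DMSO and 2 with IWP2. The authors deposited 1 table of FPKM values, 1 column per library. The DMSO columns are headed as without IWP2 and carry a number that is used here as the replicate's name only. Per the labels, the submitters' processing notes name BWA, Bowtie and RSEM, with no versions or roles, and the hg19 assembly. The row names, however, match GRCh38: 55629 of the 55723 gene identifiers shared with GENCODE release 29 have the same position there. Filters and annotation are not given in the sources used here.

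log2(FPKM + 1) was compared with limma 3.58.1 (R 4.3.3, moderated variance with a trend on mean level, two-sided, Benjamini-Hochberg over all 14022 genes with a mean of at least 1 FPKM). An adjusted p under 0.05 was called. Intervals are 95% intervals of the fit. FPKM are not counts, so no count model was used. The fit was tested on simulated data. Depth was estimated from the median of FPKM times transcript length in genes with 1 transcript of over 1500 bases. Only values inside a window set in advance were used, and these were taken to stand for 1 fragment. The estimate could therefore not fall outside that window.

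The members and lists were chosen with earlier results of these data known. Text names all 8 members, up to 2 called genes per list and direction with the largest difference, and the 2 nearest patterns of each called member. Marker genes, chromosomal neighbours, and GPC5, VPS35, TMED2, VPS26B, EXT1, AXIN2, TCF7, LEF1, RNF43, ZNRF3 and GNG12-AS1 were named after their values were seen. Alternatives were another pseudocount, filters, scaling, variance prior, a replicate block and leaving out each library.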

Additional observations from a re-analysis of the deposited data

How the results depend on the processing

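Each value was recomputed under 11 alternatives, 4 of which left out 1 library. GPC4 was called in all 11, WLS in 9, NOTUM in 8, GPC3 in 5 and PORCN in 1, and PORCN, WLS, NOTUM, GPC2, GPC3 and GPC4 kept their direction in every one. With no filter on low values, which raised the genes tested to 28917, 118 genes were higher and 263 lower, and of the 8 members 1 was higher and 0 were lower. With a variance prior without a trend, 1 member was higher, GPC3 having an adjusted p of 0.067, and the cause was not tested. Leaving out 1 library gave 58 to 657 genes higher and 180 to 718 lower, with 1 member higher in each case and 0 to 3 lower. The counts were smallest in the fits without an IWP2 library, and the cause was not tested. In all 4 of these fits the lone library of a group is assumed to vary like those of the other group. Across these 4 fits the difference ran from -0.017 to 0.091 for GPC1, below 0 without IWP2 replicate 1, and from -0.43 to 0.12 for GPC6, above 0 without IWP2 replicate 2. The other alternatives stayed within 1.5 times the 946 and 1183 genes called higher and lower. With the replicate number as a block, 862 genes were higher and 1065 lower and no member's call changed (GPC3 adjusted p = 0.033, PORCN 0.057). The labels do not say that a number marks a shared culture or day, and 2 pairs are too few to decide it from the values: over tested genes the gap between DMSO replicates 1 and 2 correlated with that between IWP2 replicates 1 and 2 at 0.15. With 2 libraries a group, small differences such as that of GPC1 cannot be resolved.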

Other observations

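PORCN and GPC6 were the most variable of the 8 genes between libraries of the same group. The DMSO libraries differed by 0.57 on the log2(FPKM + 1) scale for PORCN, and 4.56% of the 9617 tested genes with a mean of at least 5 FPKM differed by more, beside a median gap of 0.14. The IWP2 libraries differed by 0.55 for GPC6, which 2.35% of those genes exceeded, beside a median gap of 0.12. GPC4 differed by only 0.02 between the DMSO libraries and by 0.08 between the IWP2 libraries. NANOG also separated the DMSO libraries, at 23.0 and 9.54 FPKM, with replicate 1 the higher for both NANOG and PORCN. The other pluripotency markers did not share a direction. POU5F1, SOX2 and LIN28A were higher in DMSO replicate 1, and DNMT3B, ZFP42, L1TD1 and TDGF1 were lower in it.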
